A study of Mus musculus with 4 samples.

Results

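The 10 genes described here encode the NF-kappaB subunits and proteins that regulate them. Among them are the subunit genes Nfkb1, Nfkb2, Rel, Rela and Relb, the IkappaB family genes Nfkbia, Nfkbie, Nfkbid and Nfkbiz, and Tnfaip3, which encodes A20. They were selected by gene symbol, and all 10 were found among the 54752 genes counted. NF-kappaB subunits pair with each other and bind DNA. In a resting cell most pairs are kept in the cytoplasm by IkappaB proteins, and signals from the T-cell receptor and CD28 activate the IKK complex, which marks IkappaB for degradation and frees the pairs to enter the nucleus. In T cells these factors are known for driving survival, proliferation and cytokine genes, and several inhibitor genes are themselves NF-kappaB targets, which closes a feedback loop.

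The study asked how loss of the kinases MEK1 and MEK2 alters CD4+ T cells that are polarized in vitro towards T follicular helper (Tfh) cells. Bulk mRNA sequencing covered 2 WT and 2 Mek1/2-tKO libraries, all from mice on the C57BL/6 background. The paper names WT littermates as controls where it examines T-cell development, and does not say so for these libraries. Mek1/2-tKO mice carried Map2k1 fl/fl and Map2k2 fl/fl alleles together with Cd4-Cre, so that deletion depends on a Cre driven by the Cd4 promoter and acts in T-lineage cells. Naïve CD4+ T cells of the spleen from both genotypes received the same treatment: anti-CD3 and anti-CD28 stimulation with IL-6, plus blocking antibodies against TGF-β, IL-4, IFN-γ and IL-2, followed by sorting of viable cells on day 3. The number of mice behind each library, and an age for the Mek1/2-tKO mice and their WT controls in particular, were not given in the sources used here. The labels do not say whether the replicates came from separate mice or cultures, so the p-values below measure only the spread between these libraries, which may be technical.

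All 10 genes passed edgeR's quasi-likelihood test between the genotypes (adjusted p under 0.05): 6 were lower in Mek1/2-tKO (Nfkb1, Nfkb2, Rel, Rela, Nfkbid and Tnfaip3) and 4 were higher (Relb, Nfkbia, Nfkbie and Nfkbiz). Such differences were common in these libraries, since 27.2% of the 14330 genes tested passed the same test as lower and 27.8% as higher. With a fold change of at least 1.5 also required, which is what "called" means below, Nfkb1 and Tnfaip3 were called lower, against 16.4% of all genes tested. Of the 10 members, 0 were called higher by edgeR, and 0 by DESeq2, while 19.3% of all genes were. At an unadjusted p under 0.05 and any fold change, 4 were higher by edgeR. The median log2 fold change of the members was -0.31, and that of all genes tested was 0.02.

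The genotypes did not overlap for any of the 10 genes in CPM (counts relative to library size, with TMM scaling between libraries). The same held for 78.3% of all genes tested. The members were counted deeply, with 521 to 13873 reads per gene and library, and none had a count of 0. Their replicates differed by a coefficient of variation of 0.264% to 13.0%.

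**Figure D1:**
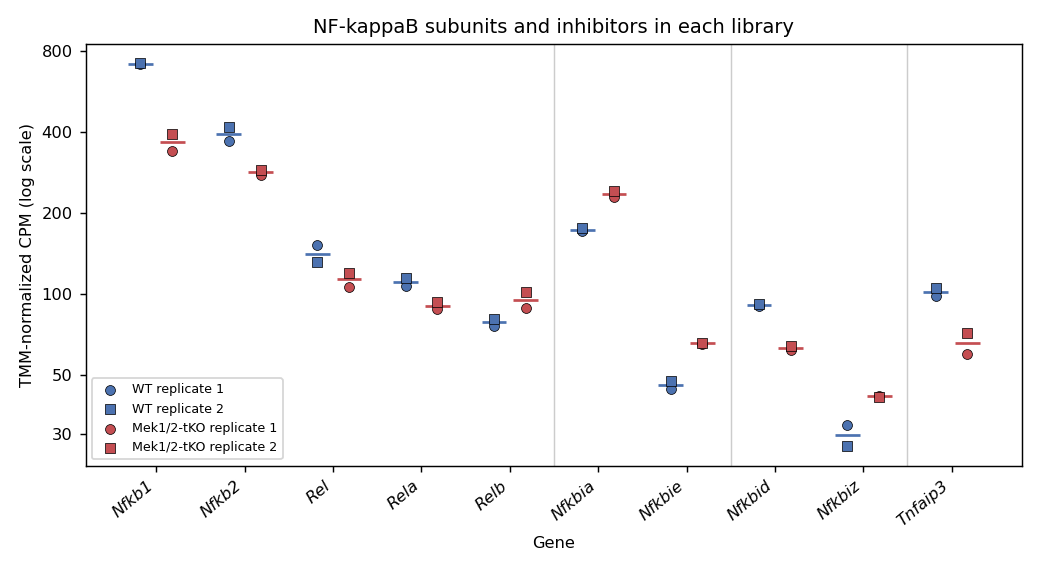
CPM (log scale) of each of the 10 genes in every library (points, 2 WT in blue and 2 Mek1/2-tKO in red), with the mean of each genotype as a short line. The 6 genes that were lower in Mek1/2-tKO and the 4 that were higher each show no overlap between genotypes, and Nfkb1 has the widest gap, from 711 to 719.6 CPM in WT to 340.1 to 392 CPM in Mek1/2-tKO.

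Because the members include known targets of NF-kappaB itself, the sequences before their transcription starts were searched for the kappaB consensus, a DNA word of 10 bases, on both strands. RefSeq windows of the GRCm38.p6 build, from 250 bases before to 50 after each start, were at hand for 7 of the 10 genes (Nfkb2, Rel, Rela, Nfkbia, Nfkbie, Nfkbid and Tnfaip3, with 12 windows in all), and not for Nfkb1, Relb and Nfkbiz. A match was found for 6 of these 7 genes (85.7%), the exception being Rela, against 2581 of all 27025 genes with a window (9.55%). By windows it was 8 of 12 (66.7%) against 8.46% of all 32851. The genes with a match include members that were higher (Nfkbia, Nfkbie) and members that were lower (Rel, Nfkb2, Nfkbid, Tnfaip3) in Mek1/2-tKO. A match describes letters in the sequence, and no binding was measured here.

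The 250 bases before the start are shown for the gene of the main inhibitor (Nfkbia), for the inhibitor gene with the largest rise (Nfkbie), for the subunit gene with a match before its single RefSeq start (Rel), and for the nuclear inhibitor gene that fell (Nfkbid, its second start), since these windows differ in the number and overlap of their matches. Capitals mark the bases covered by a match, and each run reads 5′ to 3′ on the strand of the gene.
Nfkbia (chr12:55492648-55492897, minus strand): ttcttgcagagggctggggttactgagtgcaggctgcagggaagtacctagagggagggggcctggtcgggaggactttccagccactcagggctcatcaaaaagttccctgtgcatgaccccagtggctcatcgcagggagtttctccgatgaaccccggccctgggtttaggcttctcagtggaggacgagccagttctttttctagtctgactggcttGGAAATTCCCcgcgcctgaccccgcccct
Nfkbie (chr17:45555450-45555699, plus strand): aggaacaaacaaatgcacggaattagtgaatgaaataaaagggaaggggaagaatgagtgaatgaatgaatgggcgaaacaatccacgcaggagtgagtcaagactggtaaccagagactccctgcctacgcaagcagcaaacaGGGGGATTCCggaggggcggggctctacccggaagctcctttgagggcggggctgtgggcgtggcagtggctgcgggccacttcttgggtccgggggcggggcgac
Rel (chr11:23770970-23771219, minus strand): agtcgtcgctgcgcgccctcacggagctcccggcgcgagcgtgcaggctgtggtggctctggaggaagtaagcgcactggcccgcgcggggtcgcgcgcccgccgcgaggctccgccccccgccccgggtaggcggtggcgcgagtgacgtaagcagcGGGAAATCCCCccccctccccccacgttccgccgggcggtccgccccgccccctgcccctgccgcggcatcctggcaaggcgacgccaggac
Nfkbid, second start (chr7:30422156-30422405, plus strand): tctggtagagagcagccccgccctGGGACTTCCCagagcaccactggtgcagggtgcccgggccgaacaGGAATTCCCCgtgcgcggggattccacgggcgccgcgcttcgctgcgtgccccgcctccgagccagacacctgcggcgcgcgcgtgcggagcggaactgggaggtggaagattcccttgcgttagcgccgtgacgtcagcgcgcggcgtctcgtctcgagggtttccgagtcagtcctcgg
In Nfkbia the match began at -29, on the antisense strand, and in Nfkbie at -106, on the sense strand, counted in bases from the start. Rel held a pair of overlapping matches at -92 and -91, GGGAAATCCC, which matched on both strands, and GGGGATTTCC, read on the antisense strand. Nfkbid held GGGACTTCCC at -226 on both strands and GGGGAATTCC at -181 on the antisense strand.

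For Tnfaip3 and Nfkb2 only the matching words are given. The first Tnfaip3 start had GGGACACCCC at -125, on both strands, and GGGGATTTCC at -12, on the antisense strand. No match lay in the window of its second start. Before the first Nfkb2 start lay GGGAATTCCC at -39 and GGGGAATTCC at -38, which overlap, and GGGGCTTTCC at -11. Further words of Nfkb2 lay around its other starts: GGGACATTCC at -236 from the second start, and GGGACTTTCC, which falls at 11 bases after the second start and at -225 from the third.

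**Figure D2:**
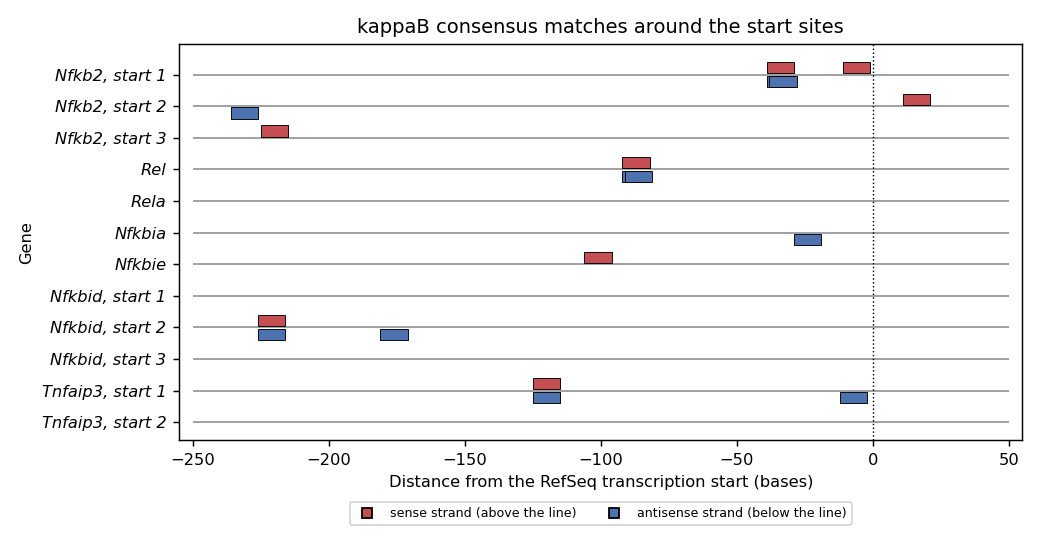
Matches to the kappaB consensus in the 12 RefSeq windows of the 7 genes that have one, drawn by distance in bases from the transcription start (dotted line), with sense matches above each line and antisense matches below it. The 8 windows with a match belong to 6 genes, and the window of Rela is empty.

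The libraries were of similar depth, with 16330802 to 18931090 counts each, and mitochondrial genes took 1.56% to 2.24% of them. Map2k1, which encodes MEK1, had 182 and 187 CPM in WT, against 98.0 and 105 CPM in Mek1/2-tKO (log2 fold change -0.86, adjusted p 1.29e-06 in edgeR), and Map2k2, which encodes MEK2, had 155 and 165 CPM against 172 and 182 CPM (log2 fold change 0.15, adjusted p 0.126). Counts over whole genes include exons outside a deleted part, so the level of Map2k2 does not check its label. Cd4, the defining marker of the labelled cells, had 297 and 289 CPM in WT, against 18.8 and 25.1 CPM in Mek1/2-tKO. The list of 12 T-lineage genes leaned lower in Mek1/2-tKO, with 7 called lower and 0 higher. Its summed level was 2866 and 2885 CPM in WT, against 1894 and 1741 CPM. At an adjusted p under 0.05 in edgeR and any fold change, 8 were lower and 1 higher. Lck (log2 fold change -0.54), Trbc2 (-0.03), Trbc1 (0.16), Cd3d (0.20) and Cd3g (0.24) were not called. Genes listed as markers of other cells were mostly higher in the same libraries, though the cells that expressed them were not identified. Of 12 B-lineage genes, 11 were called higher and 1 lower. The 12 summed to 1449 and 1421 CPM in WT, against 6865 and 6824 CPM in Mek1/2-tKO. All 8 NK and gamma-delta T genes were called higher (129 and 133 CPM against 922 and 844 CPM). All 7 tested of 10 myeloid genes were called higher too (57.7 and 49.4 CPM against 247 and 258 CPM), most of the sum being Mpeg1, and Adgre1, S100a8 and Siglech were at 0 in both WT libraries. These markers move with genotype in both Mek1/2-tKO libraries, so no comparison without them is possible, and their part in the differences of the NF-kappaB genes was not tested. In bulk RNA, fewer cells of a type and less RNA per cell cannot be told apart.

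Among the subunits, 4 of the 5 genes were lower in Mek1/2-tKO and only Relb was higher. Nfkb1 (ENSMUSG00000028163.17, chromosome 3, 135584655 to 135691547, minus strand) encodes the precursor that is processed to the p50 subunit. Its counts were 13863 and 13873 in WT and 5266 and 7352 in Mek1/2-tKO, or 711 and 719.6 CPM against 340.1 and 392 CPM. Both Mek1/2-tKO libraries lay far below both WT libraries, with a gap wider than the distance between the replicates of either genotype. Mean levels of 716 ± 5.73 CPM for WT and 366 ± 36.3 CPM for Mek1/2-tKO (SD over 2 libraries) correspond to a 1.96-fold lower level (log2 fold change -0.97, SE 0.08, adjusted p 4.2e-07 in edgeR).

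Nfkb2 (ENSMUSG00000025225.14, chromosome 19, 46304737 to 46312090, plus strand) encodes the precursor of p52, the subunit of the alternative pathway. It had 369 and 416 CPM in WT, against 277 and 287 CPM in Mek1/2-tKO. Both WT libraries lay above both Mek1/2-tKO libraries, and the WT replicates were the wider pair. Its log2 fold change was -0.48 (SE 0.08, adjusted p 0.000187 in edgeR), under the fold threshold. Of its exon bases 0.122% are shared with a gene on the other strand, Psd.

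Rel (ENSMUSG00000020275.9, chromosome 11, 23736847 to 23770970, minus strand) encodes c-Rel, a subunit with a transactivation domain that is prominent in lymphocytes. Its levels were 151 and 131 CPM in WT, against 106 and 119.6 CPM in Mek1/2-tKO, so that the closest libraries of the genotypes lay nearer to each other than the WT replicates did. This gave a log2 fold change of -0.32 (SE 0.10, adjusted p 0.0124 in edgeR). Without WT replicate 1 it was -0.21 and the adjusted p was 0.261.

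Rela (ENSMUSG00000024927.7, chromosome 19, 5637483 to 5648130, plus strand) encodes p65, the transactivating partner of p50 in the classical pathway. It had 107 and 115 CPM in WT, against 87.6 and 92.8 CPM in Mek1/2-tKO, and both WT libraries were the higher ones. Its log2 fold change was -0.30 (SE 0.09, adjusted p 0.0118 in edgeR). The adjusted p rose to 0.0527 without WT replicate 1 and to 0.191 without WT replicate 2, with log2 fold changes of -0.35 and -0.25.

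Relb (ENSMUSG00000002983.17, chromosome 7, 19606217 to 19629438, minus strand) encodes the usual partner of p52. Its levels were 75.7 and 80.8 CPM in WT, against 88.2 and 101 CPM in Mek1/2-tKO. Both Mek1/2-tKO libraries were above WT, but the replicates of Mek1/2-tKO lay further apart than the closest libraries of the genotypes. The log2 fold change of 0.28 (SE 0.10, adjusted p 0.0280 in edgeR) was positive in every fit, but its test depended on single libraries and on scaling: the adjusted p was 0.250 without WT replicate 1, 0.0887 without WT replicate 2, 0.117 without Mek1/2-tKO replicate 2 and 0.133 with scaling by library size alone.

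Among the members, the genes of both cytoplasmic inhibitors were higher in Mek1/2-tKO. Nfkbia (ENSMUSG00000021025.8, chromosome 12, 55489410 to 55492647, minus strand) encodes IkappaB alpha, the inhibitor that is degraded and resynthesized fastest. It had 170.2 and 175 CPM in WT, against 229.6 and 241 CPM in Mek1/2-tKO, and the gap between the genotypes was wider than the distance between replicates of either. The log2 fold change was 0.45 (SE 0.07, adjusted p 0.00021 in edgeR), and it lay between 0.40 and 0.48 when any 1 library was left out.

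Nfkbie (ENSMUSG00000023947.8, chromosome 17, 45555703 to 45563169, plus strand) encodes IkappaB epsilon, a slower-acting cytoplasmic inhibitor. Its levels were 44.3 and 47.1 CPM in WT, against 65.0 and 65.7 CPM in Mek1/2-tKO. The Mek1/2-tKO replicates were almost level with each other and well above WT. In the edgeR fit Nfkbie had a log2 fold change of 0.52 (SE 0.10, adjusted p 0.000651), with 0.47 to 0.56 when any 1 library was left out.

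The atypical IkappaB proteins act in the nucleus, and their genes moved in opposite directions. Nfkbid (ENSMUSG00000036931.15, chromosome 7, 30421732 to 30428746, plus strand) encodes IkappaB-NS, which modulates NF-kappaB at its target genes. It had 90.2 and 91.6 CPM in WT, against 61.7 and 64.0 CPM in Mek1/2-tKO, with replicates close together in both genotypes and a wide gap between them. The log2 fold change was -0.53 (SE 0.09, adjusted p 0.000246 in edgeR), and -0.62, past the fold threshold, with scaling by library size alone.

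Nfkbiz (ENSMUSG00000035356.17, chromosome 16, 55811375 to 55838899, minus strand) encodes IkappaB zeta, a nuclear cofactor of a subset of NF-kappaB targets. Its counts were the lowest of the 10 genes, at 633 and 521 in WT and 643 and 777 in Mek1/2-tKO, or 32.5 and 27.0 CPM against 41.5 and 41.4 CPM. The Mek1/2-tKO libraries were level with each other and above both WT libraries, which differed more. The log2 fold change was 0.48 (SE 0.12, adjusted p 0.00481 in edgeR). It depended on which WT library was kept: 0.61, past the fold threshold, without WT replicate 1, and 0.35 with an adjusted p of 0.100 without WT replicate 2.

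Tnfaip3 (ENSMUSG00000019850.11, chromosome 10, 19000910 to 19015657, minus strand) encodes A20, a ubiquitin-editing enzyme that shuts off signalling upstream of IKK. It had 98.1 and 105 CPM in WT, against 59.7 and 71.3 CPM in Mek1/2-tKO, so that both WT libraries were well above both Mek1/2-tKO libraries. Mean levels of 102 ± 5.10 CPM for WT and 65.5 ± 8.18 CPM for Mek1/2-tKO (SD over 2 libraries) correspond to a 1.55-fold lower level (log2 fold change -0.63, SE 0.10, adjusted p 0.000163 in edgeR). The call sits at the fold threshold: leaving out WT replicate 2 gave -0.58 and leaving out Mek1/2-tKO replicate 1 gave -0.51, both under 1.5-fold and both with an adjusted p under 0.05.

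**Figure D3:**
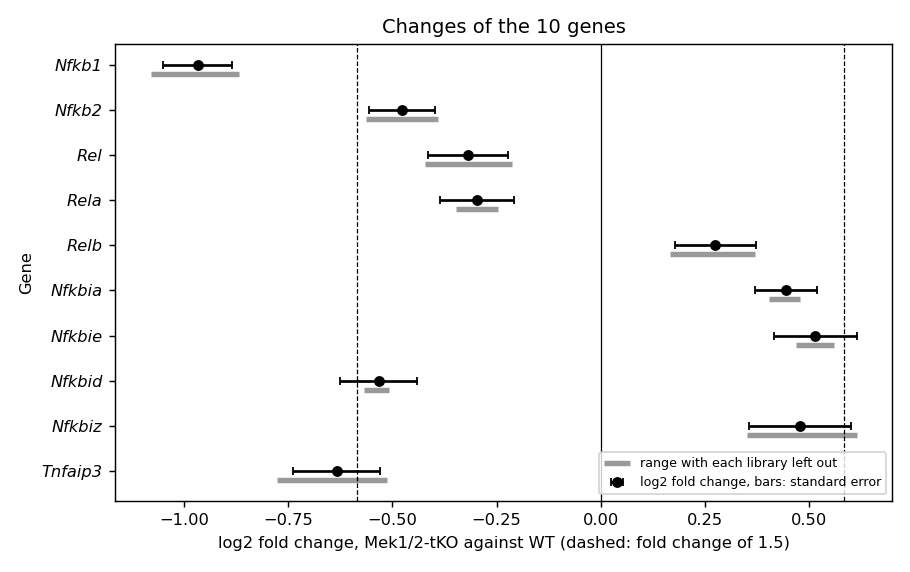
Log2 fold change of each of the 10 genes, Mek1/2-tKO against WT. A bar marks 1 SE on either side, derived from the edgeR test, and a grey line the range of values when each library was left out. Dashed lines mark a fold change of 1.5, and Nfkb1 (-0.97) and Tnfaip3 (-0.63) lie beyond the lower one while the 4 higher genes, from 0.28 to 0.52, stay inside the upper one.

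Levels were compared between genes only per length of exons, as RPKM (reads scaled to gene length and library size). In WT the highest levels were those of Nfkb2 (119 RPKM, libraries 112 and 126) and Nfkbia (107 RPKM), followed by Nfkb1 (59.3), Rela (40.8) and Nfkbid (38.8). Relb (20.1) and Rel (18.9) were not separated by their replicates, nor were Nfkbie (15.01) and Tnfaip3 (14.1), and Nfkbiz was the lowest (5.93). In Mek1/2-tKO the order began with Nfkbia (146 RPKM) and Nfkb2 (85.8). Rela (33.2) and Nfkb1 (30.3) overlapped there, below them came Nfkbid (26.8), Relb (24.4), Nfkbie (21.5) and Rel (15.1), and Tnfaip3 (9.06) and Nfkbiz (8.26) overlapped at the end. Places in this order rest on the length used. The exon union of Nfkb1 spans 12061 bases and its longest coding transcript in GENCODE M21 4117. With the latter it had 174 RPKM in WT, the first of the 10, and 88.9 RPKM in Mek1/2-tKO, the second after Nfkbia. By coding transcripts Nfkb2 (102) overlapped Nfkbia (109) in WT, Nfkbid (44.6) passed Rela (40.8), and Tnfaip3 (23.0) passed Rel (18.9) and Nfkbie (18.8). In Mek1/2-tKO Relb (42.8) passed Rela (33.2) and Nfkbid (30.8). For Nfkb2 that transcript (3846 bases) is longer than the counted exon union (3289 bases). Its level and share by that transcript, and its ratio to Nfkb1, may thus be too low.

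The make-up of the subunit transcripts was taken as each gene's share of the summed RPKM of the 5 subunits. The share of Nfkb1 was 23.6% and 22.4% in WT and 15.5% and 16.6% in Mek1/2-tKO. The share of Relb was 7.79% and 7.80% in WT and 12.5% and 13.3% in Mek1/2-tKO, while that of Rela was 15.7% and 15.8% against 17.8% and 17.4%. For these 3 genes the genotypes did not overlap. Nfkb2 made up the largest share in every library, 44.8% and 47.4% in WT and 46.4% and 44.6% in Mek1/2-tKO, and Rel had 8.08% and 6.57% against 7.84% and 8.17%. For Nfkb2 and Rel the libraries of the genotypes overlapped. With the longest coding transcripts as lengths the mean share of Nfkb1 was 46.9% in WT and 35.03% in Mek1/2-tKO, that of Nfkb2 27.5% and 29.0%, and that of Relb 9.55% and 16.9%.

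**Figure D4:**
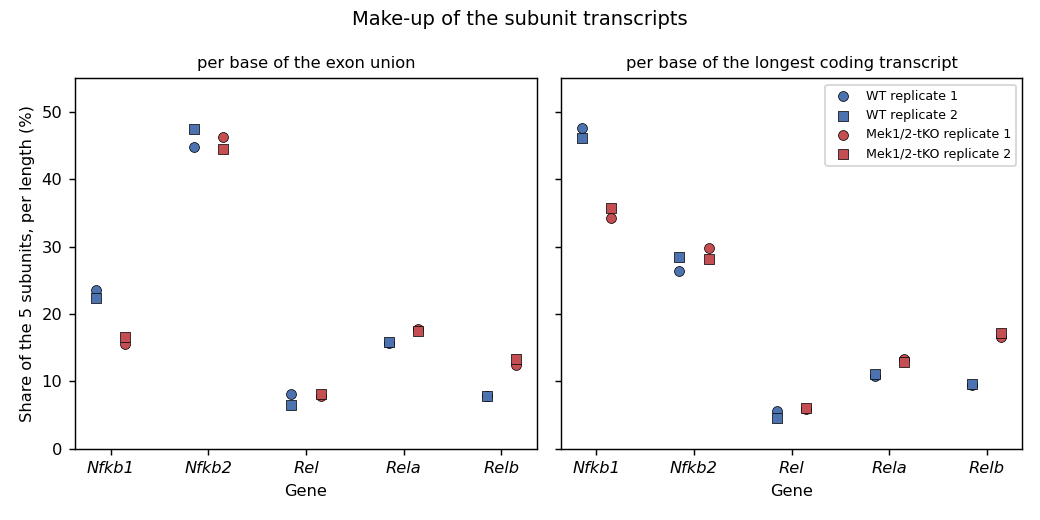
Share of each subunit gene in the summed RPKM of the 5 subunits, in percent, with 1 point for each of the 4 libraries, per base of the exon union (left) and of the longest coding transcript (right). On the left Nfkb1 takes 22.4% to 23.6% in the WT libraries and 15.5% to 16.6% in the Mek1/2-tKO libraries, and Relb 7.79% to 7.80% and 12.5% to 13.3%.

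Ratios of members within a library need no scaling between libraries. Relb stood at 0.495 and 0.493 of the RPKM of Rela in WT and at 0.704 and 0.761 in Mek1/2-tKO, a log2 difference of 0.57. Nfkb2 to Nfkb1 was 1.90 and 2.12 in WT and 2.98 and 2.69 in Mek1/2-tKO, a log2 difference of 0.50. Nfkbia set against the sum of the 5 subunits was 0.422 and 0.408 in WT and 0.786 and 0.762 in Mek1/2-tKO, a log2 difference of 0.90. With the longest coding transcripts as lengths, Nfkb2 to Nfkb1 was 0.586 in WT and 0.827 in Mek1/2-tKO, so that which gene is higher rests on the length used, as it does for Relb to Rela in Mek1/2-tKO (0.869 in WT and 1.29 in Mek1/2-tKO). Nfkbia to the 5 subunits was then 0.295 and 0.589, a log2 difference of 1.00, while the log2 differences of the other ratios do not depend on length. All 3 ratios were higher in both Mek1/2-tKO libraries than in both WT libraries. In an exact two-sided permutation test of the 4 libraries each gave p = 0.333, which is the smallest p that 2 against 2 allows.

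The wider pathway was read from 5 lists with 49 genes, all of them tested, of which 12 were called higher and 7 lower, with a median log2 fold change of -0.05. Among all genes tested 19.3% were called higher and 16.4% lower, and the counts of the 5 lists together lie near those shares. The lists were unlike each other, though: the 20 genes known as NF-kappaB targets held 10 of the 12 called higher and 3 of the 7 called lower. Beside the members stand Nfkbib, which encodes IkappaB beta, and Bcl3, a nuclear IkappaB protein. Nfkbib had 139 and 149 CPM in WT, against 190 and 208 CPM in Mek1/2-tKO (log2 fold change 0.47, SE 0.08, adjusted p 0.000296 in edgeR). It was higher in both Mek1/2-tKO libraries, as the other cytoplasmic inhibitor genes Nfkbia and Nfkbie were. Bcl3 had 37.8 and 42.1 CPM in WT, against 35.6 and 41.8 CPM in Mek1/2-tKO, so that the genotypes overlapped (log2 fold change -0.05, adjusted p 0.772 in edgeR).

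Of the 8 genes of the IKK complex and the kinase module of the alternative pathway, edgeR and DESeq2 each called 0 in either direction, and the median log2 fold change was -0.16. At an unadjusted p under 0.05 edgeR had 1 higher and 3 lower. Traf3, an adaptor that keeps the alternative pathway off, and Chuk, which encodes the kinase IKK alpha, passed the adjusted p alone with log2 fold changes of -0.51 and -0.32, and were picked out after their values were seen. Without Mek1/2-tKO replicate 2, or with library size alone, 1 gene of the list was called lower.

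The route from the T-cell receptor to IKK held 12 genes, of which 2 were called higher and 3 lower (median log2 fold change -0.29). With any fold change allowed, 2 were higher and 7 lower at an adjusted p under 0.05 in edgeR. Over all genes tested the shares by that measure were 27.8% higher and 27.2% lower. Sharpin, a part of the ubiquitin ligase that makes linear chains, had a mean of 50.1 ± 0.207 CPM for WT and 109 ± 1.72 CPM for Mek1/2-tKO, SD over 2 libraries (log2 fold change 1.12, adjusted p 2.78e-07 in edgeR). Traf6, a ubiquitin ligase of the route, had 98.3 and 87.3 CPM in WT, against 50.4 and 53.6 CPM in Mek1/2-tKO (log2 fold change -0.84, adjusted p 1.09e-05 in edgeR). Both genes kept a gap between genotypes that was wider than the spread of either. Prkcq, a kinase that acts downstream of the receptor and CD28, had 96.4 and 101 CPM against 54.4 and 62.6 CPM (log2 fold change -0.75, adjusted p 2.61e-05 in edgeR). Tab3, a partner of the kinase TAK1, had the lowest counts of them, 13.4 and 10.01 CPM against 6.33 and 7.30 CPM, with a log2 fold change of -0.78 that was -0.56 without WT replicate 1 (adjusted p 0.107 in edgeR).

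Among the 7 partners of A20 and other deubiquitinases, edgeR and DESeq2 each called 1 lower and 0 higher, and the median log2 fold change was -0.20. At an unadjusted p under 0.05 edgeR had 1 higher and 2 lower. The gene called lower was Tnip3, which encodes an A20-binding protein, with 19.9 and 15.9 CPM in WT, against 8.397 and 5.96 CPM in Mek1/2-tKO (log2 fold change -1.32, SE 0.21, adjusted p 0.000113 in edgeR). It lay lower in both Mek1/2-tKO libraries, as Tnfaip3 did.

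Of 20 genes known as NF-kappaB targets, 10 were called higher, against 19.3% of all genes tested, and 3 lower, against 16.4%, with a median log2 fold change of 0.59 against 0.02. No test of the list was run, and the share called lower is near that of all genes. Csf2, the gene of the cytokine GM-CSF, had 5.95 and 10.1 CPM in WT, against 174 and 137 CPM in Mek1/2-tKO (log2 fold change 4.28, SE 0.19, adjusted p 5.56e-10 in edgeR). Il2, the growth factor gene of activated T cells, had 113 and 111 CPM in WT, against 15.6 and 9.64 CPM in Mek1/2-tKO (log2 fold change -3.17, SE 0.16, adjusted p 2.71e-09 in edgeR). Csf2 and Il2, the most changed target genes, thus stood on opposite sides, each with a gap between genotypes wider than the distance between replicates. The list as a whole leaned higher: at an adjusted p under 0.05 in edgeR and any fold change, 15 of its genes were higher and 4 lower. All genes called lower are named here, but of the 10 called higher only Csf2, Lta and Cd83. Lta, which encodes lymphotoxin alpha, had 182 and 177 CPM against 687 and 605 CPM (log2 fold change 1.85). Cd83, a surface protein of activated lymphocytes, had 172 and 173 CPM against 473 and 433 CPM (log2 fold change 1.39). The other genes called lower were Il2ra, the alpha chain of the IL-2 receptor (log2 fold change -0.91), and Cflar, an inhibitor of death-receptor signalling (-0.66), both named after their values were seen. B-lineage and NK markers were higher in the same libraries, and cells that carry such markers can express several of these targets. The part of such cells in the list's values was not tested.

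**Figure D5:**
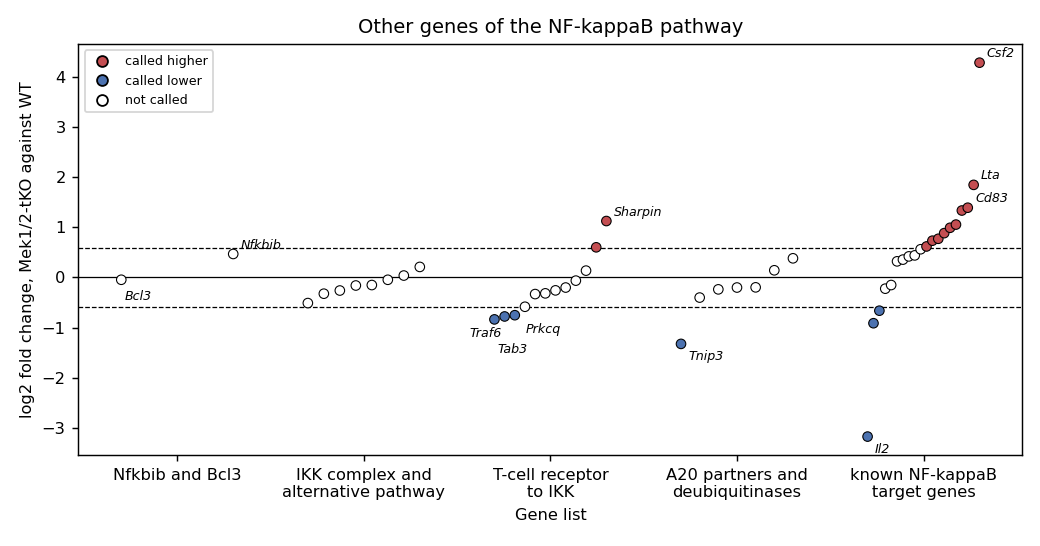
Log2 fold change of the 49 other pathway genes, Mek1/2-tKO against WT, by list, with filled points for genes called and dashed lines at a fold change of 1.5. The target list spans from -3.17 (Il2) to 4.28 (Csf2) and holds 10 of the 12 genes called higher, while the 8 genes of the IKK complex and the alternative pathway hold none that was called.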

How the data were processed

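In vitro polarized CD4+ T cells were sequenced as stranded, paired-end mRNA libraries, 2 for WT and 2 for Mek1/2-tKO. The authors deposited raw read counts per gene from featureCounts (Subread 1.5.1) after Trimmomatic 0.36, on GRCm38 (mm10), per the labels and submitters' processing notes; the annotation release and the strand setting were not given in the sources used here. Symbols were matched for 54723 of 54752 genes. Counts were filtered by expression (14330 genes kept), scaled by TMM and fitted by genotype with edgeR 4.0.16 (quasi-likelihood, Benjamini-Hochberg over all genes tested). Each SE was derived from the test, as the absolute log2 fold change divided by the square root of the quasi-likelihood F statistic. Calls required a fold change of 1.5 or more with an adjusted p below 0.05. RPKM used the exon lengths of the files. The fits were repeated with DESeq2 1.42.0, with edgeR's likelihood-ratio test, and with other scalings, filters and thresholds, a replicate block, each library left out, and a different transcript length, the last chosen after seeing the data. Depth was 16330802 to 18931090 counts, and a count of 0 would allow up to 3 counts. The replicates of neither genotype agreed within sampling noise (chi-square per gene 4.11 and 10.7). All 10 members, and of each pathway list at most 4 called genes with the largest fold change, are named; 1 further gene is not reported here. The members and lists were chosen with earlier results of these data known. The script was tested on simulated data.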

Additional observations from a re-analysis of the deposited data

How the results depend on the processing

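The direction of all 10 members held under DESeq2, the likelihood-ratio test, other scalings and filters, the replicate block and without each library, and the log2 fold changes of Nfkb1 ranged from -1.08 to -0.87. Calls near the fold threshold moved: Nfkbid was -0.62 and called with library size alone, Nfkbiz ranged from 0.35 to 0.61 and Tnfaip3 from -0.78 to -0.51 without 1 library, and Tab3 from -0.97 to -0.56. With 1 library left out, 0 to 1 members were called higher and 1 to 2 lower, and 2 to 4 were higher at an adjusted p under 0.05. A fold change of at least 2 gave 1725 genes higher and 1040 lower over all genes, 0 members lower, and 6 pathway genes higher and 2 lower. With no fold threshold 3903 genes were lower, 4 members higher and 6 lower, and 19 pathway genes higher and 15 lower. Over all genes, 2768 were called higher and 2355 lower, against 2388 and 2848 with library size alone. Bcl3, which was not called, changed sign without 1 library (range -0.17 to 0.064). The share of Nfkb2 differed by -0.67 points and changed sign with the coding transcript length (1.50) and without 1 library (range -1.96 to 0.62 points), as did that of Rel without 1 library (range -0.080 to 1.44 points). The cause was not tested. Libraries of the same replicate number showed no shared deviation (correlation -0.02), which cannot tell whether they were handled together, and the labels do not say. The replicate block gave 2652 genes higher and 2300 lower and changed no member's call. With 2 libraries per genotype, where 1 was left out the lone library was assumed to vary like the other genotype's pair.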
